A study of Caenorhabditis elegans with 6 samples.

Results

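Transcripts of the small heat shock protein genes of the nematode Caenorhabditis elegans were followed in whole larvae raised with or without sodium perchlorate. Probe sets were taken whose platform annotation gave exactly 1 gene symbol among 10 alpha-crystallin genes, keeping for each gene the probe set with the highest mean over the 6 arrays. All 10 genes were found, each with 1 probe set, among 25478 genes with such a probe set and 26192 probe sets tested. They were hsp-16.2 and hsp-16.41 of the HSP16 family, hsp-12.1, hsp-12.2, hsp-12.3 and hsp-12.6 of the HSP12 family, and hsp-17, hsp-25, hsp-43 and sip-1. The genes hsp-16.1, hsp-16.11, hsp-16.48 and hsp-16.49 share probe sets that carry several symbols, so no value is given for any of them.

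RNA came from staged L4 hermaphrodites of the wild-type strain N2, fed Escherichia coli OP50 at 20 °C. The control group (n = 3 arrays) was kept for 48 hours from L1 to L4 on plain nematode growth medium. The perchlorate group (n = 3 arrays) was kept for the same time with 1 mg/mL sodium perchlorate in both the agar and the bacteria. For the control samples the protocol fields also describe the exposure, whereas the title, the description and the treatment field call them controls; the latter were followed. The labels do not say that replicates were separate cultures, and p-values therefore reflect only how these samples scatter, which may be technical.

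Small heat shock proteins are chaperones that need no ATP. They share a conserved alpha-crystallin domain, assemble into oligomers and hold unfolding proteins until the HSP70 machinery can refold them. In the nematode the HSP16 genes are known as strongly heat-inducible targets of the transcription factor HSF-1, and hsp-16.2 is widely used as a stress reporter. The HSP12 proteins are unusually short members of the family, and several other members are made in particular tissues or stages without stress.

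Values are log2 levels made with RMA, which corrects background, equalises the distributions of the arrays and combines the probes of a probe set. A difference of 1 is therefore a doubling, and brightness of 1 probe set cannot be set against that of another. Array medians ran from 5.81 to 5.89 and lower quartiles from 3.96 to 4.09. Perchlorate replicate 1 stood apart on the first principal component, which held 38.9% of the variance, with a score of 47.7 beside 12.2 and 13.1 on the other perchlorate arrays and -27.2 to -20 on the controls. Because whole animals were used, fewer cells of a type and less RNA per cell cannot be told apart. Markers of L4 sperm formation averaged 8.05 to 8.16 over 12 genes on the 6 arrays. Oocyte and eggshell markers averaged 9.93 to 10.3 over 12 genes, and adult yolk genes averaged 11.7 to 12.17 over 5 genes. The means of these yolk and oocyte probe sets lay above the upper quartile of these L4 arrays (8.12 to 8.16), which gives their brightness only.

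With perchlorate, both HSP16 genes and the neighbouring HSP12 genes hsp-12.3 and hsp-12.6 lay higher, by 0.48 to 0.76 on the log2 scale, while hsp-12.2, hsp-17, hsp-25 and sip-1 lay within 0.2 of their control means. None of the 10 genes passed at a limma adjusted p under 0.05, the smallest being 0.146, so none is called changed. In the same limma test 2 of 26192 probe sets passed, 0.00764% of those tested, and 0 passed on leaving out any array. At an unadjusted limma p under 0.05, 5 of the 10 genes were higher and 0 were lower, beside 16.4% of all tested probe sets in either direction, 8.46% higher and 7.92% lower. The groups did not overlap in 5 genes that were higher and 1 that was lower, beside 12.8% and 11.2% of all tested probe sets. The median difference of the 10 genes was 0.3, beside 0.03 over all tested probe sets. The genes were chosen with results of these data known, so their count and median are descriptions. Some tissue and stage marker lists, not all, lay apart between the groups beside them. The mean levels per array overlapped between groups for L4 sperm, oocyte and eggshell, dauer and L1 arrest, and pharynx markers. Median differences were -0.03 for L4 sperm, 0.02 for oocyte and eggshell, and 0.02 for dauer and L1 arrest. The mean level of the 5 adult yolk genes was 11.7 to 11.79 in controls and 11.87 to 12.17 with perchlorate, without overlap, with a median difference of 0.29. Of these, vit-1 (0.56, limma adjusted p = 0.191) and vit-5 (0.33, limma adjusted p = 0.252) were higher at an unadjusted limma p under 0.05, and 0 passed adjusted. The 5 yolk genes were not all alike: 3 lay above 0 and 2 below, with vit-2 at -0.01 and vit-6 at -0.03. Somatic marker lists had medians below 0, at -0.28 for epidermis, -0.22 for body wall muscle, -0.17 for intestine, -0.16 for pharynx and -0.15 for neurons. The part of these markers in the values of the 10 genes was not tested.

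**Figure D1:**
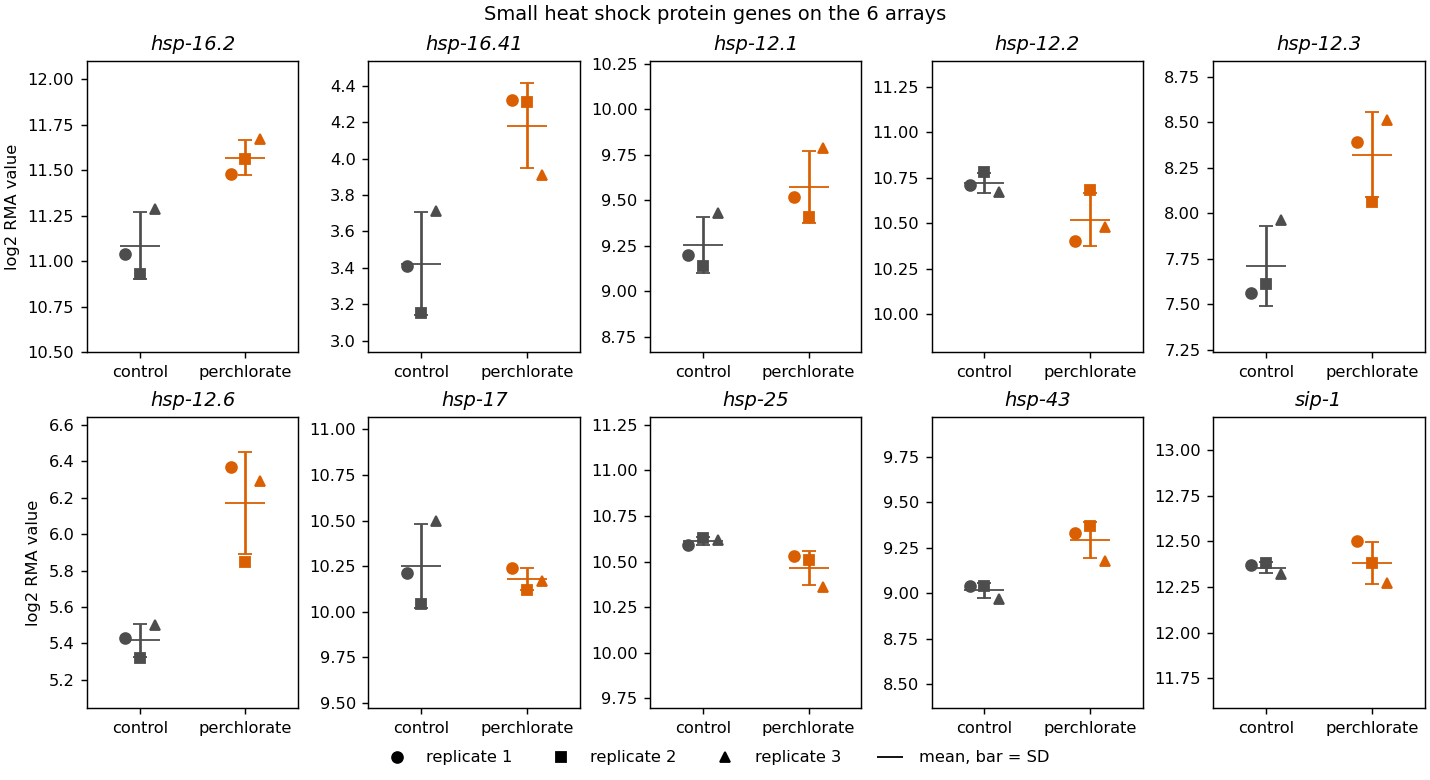
Log2 RMA value (vertical axis, the same height in log2 units in every panel) of each small heat shock protein gene on the 3 control and 3 perchlorate arrays, with symbols for the replicate number, the mean as a line and the SD as a bar. The perchlorate points lie above every control point for hsp-16.2, hsp-16.41, hsp-12.3, hsp-12.6 and hsp-43, below them for hsp-25, and overlap them for the other genes.

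Both HSP16 genes encode classical heat-inducible chaperones and lie next to each other, with no protein-coding gene between them in the RefSeq annotation of assembly WBcel235. The level of hsp-16.2 was 11.04, 10.93 and 11.29 in control replicates 1 to 3 and 11.48, 11.56 and 11.67 in perchlorate replicates 1 to 3. All perchlorate arrays were above all control arrays, and control replicate 3 was nearest to them. The group means were 11.09 ± 0.186 and 11.57 ± 0.0912 (SD, n = 3 each). The difference was 0.48 (SE 0.133, limma adjusted p = 0.172), which is 1.4 times the control level with a 95% interval of 1.13 to 1.74. The probe set was bright, above the upper quartile of each array in controls too. Brightness depends on the probe set, so this gives no amount of RNA in unexposed larvae.

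For hsp-16.41 the level was 3.41, 3.15 and 3.71 in controls and 4.32, 4.31 and 3.91 with perchlorate. Again the groups did not overlap, with control replicate 3 the highest control and perchlorate replicate 3 the lowest exposed array. Means were 3.43 ± 0.279 and 4.18 ± 0.235 (SD, n = 3 each), and the difference of 0.76 (SE 0.186, limma adjusted p = 0.152) corresponds to 1.69 times, with a 95% interval of 1.25 to 2.29. This probe set was dim: it lay below the lower quartile on 4 of the 6 arrays and below the median on all 6, where background weighs most and the size of a fold is least certain. The change of hsp-16.41 exceeded that of its neighbour by 0.27, but the ratio of the pair on the exposed arrays, relative to its control mean, was 0.50, 0.41 and -0.09, and the difference in change gave an exact two-sided permutation p of 0.3, where 3 arrays against 3 allow 0.1 at the lowest.

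Other loci of the HSP16 kind gave values on both sides of 0. Of 4 probe sets that each carry 2 symbols of the HSP16 group, all 4 lay above 0, with differences of 0.13 to 0.25, and 0 had an unadjusted limma p under 0.05. These probe sets share their genes, so they are not 4 independent readings. Their values ran from 11.57 to 12.5. The gene hsp-16.21 was at 3.37, 3.62 and 3.33 in controls and at 3.89, 3.73 and 4.22 with perchlorate, a difference of 0.51 (SE 0.162, limma adjusted p = 0.206) on a dim probe set. The related gene hsp-16.20 was at 5.26, 5.17 and 5.08 and then at 5.16, 4.23 and 5 (difference -0.37, SE 0.240, limma adjusted p = 0.481). Their groups were separate for hsp-16.21 and overlapped for hsp-16.20, where the low mean came from perchlorate replicate 2. Another gene outside the 10, ZK1128.7, was at 8.41, 8.38 and 8.61 and then at 7.89, 8.38 and 8.39 (difference -0.24, limma adjusted p = 0.505), its low mean coming from perchlorate replicate 1. Over the 4 such genes measured, 1 was higher and 0 lower at an unadjusted limma p under 0.05, beside 8.46% and 7.92% of all tested probe sets. Of the 4 genes 0 passed adjusted over all probe sets, and the median was -0.11.

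Among the HSP12 genes, hsp-12.6 had the smallest p of the 10. It is known as a target of the FOXO factor DAF-16, through which lowered insulin signalling lengthens life. Its level was 5.43, 5.32 and 5.5 in controls and 6.37, 5.85 and 6.29 with perchlorate. The controls were tight, and each exposed array was above all of them, replicate 2 least so. Means were 5.42 ± 0.0864 and 6.17 ± 0.278 (SD, n = 3 each), a difference of 0.75 (SE 0.160, limma adjusted p = 0.146), or 1.69 times with a 95% interval of 1.3 to 2.19. It was below the array median on 3 of the 6 arrays and above the lower quartile on all 6.

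The adjacent gene hsp-12.3, whose product is among the short forms with little chaperone activity in vitro, was at 7.56, 7.61 and 7.96 in controls and at 8.39, 8.06 and 8.51 with perchlorate. Groups were again separate, with control replicate 3 close to perchlorate replicate 2. Means were 7.71 ± 0.219 and 8.32 ± 0.231 (SD, n = 3 each), and the difference was 0.61 (SE 0.169, limma adjusted p = 0.173), or 1.53 times with a 95% interval of 1.16 to 2.02. The change of hsp-12.6 exceeded that of hsp-12.3 by 0.14 (exact two-sided permutation p = 0.4, with 0.1 the lowest possible). The ratio of these neighbours, relative to its control mean, was 0.16, 0.01 and -0.17 in controls and 0.27, 0.08 and 0.07 with perchlorate, so the groups overlapped. With the HSP16 genes, 2 neighbouring pairs were compared, and neither p could pass an adjustment.

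The other HSP12 genes are on separate chromosomes. The level of hsp-12.1 was 9.2, 9.14 and 9.43 in controls and 9.52, 9.41 and 9.79 with perchlorate, and control replicate 3 lay above perchlorate replicate 2. Its difference was 0.32 (SE 0.146, limma adjusted p = 0.336; 95% interval -0.03 to 0.66 on the log2 scale), and it was 0.21 without perchlorate replicate 3. For hsp-12.2, another short form, the level was 10.71, 10.78 and 10.67 and then 10.4, 10.68 and 10.48. Here perchlorate replicate 2 was within the control range and the others were below it, and the difference was -0.20 (SE 0.119, limma adjusted p = 0.456; 95% interval -0.48 to 0.08). Within the HSP12 family, 2 of 4 genes were therefore higher at an unadjusted limma p under 0.05, beside 8.46% of all tested probe sets. The median of the 4 genes was 0.46.

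The 4 remaining genes are larger family members or known for particular tissues and stages. The largest protein, HSP-43, is made without heat stress. Its gene was at 9.04, 9.04 and 8.97 in controls and at 9.33, 9.37 and 9.18 with perchlorate. These groups were separate and narrow, with means of 9.01 ± 0.0403 and 9.29 ± 0.0993 (SD, n = 3 each) and a difference of 0.28 (SE 0.108, limma adjusted p = 0.268), or 1.21 times with a 95% interval of 1.02 to 1.45. The unadjusted limma p of hsp-43 was 0.0356 with all arrays, and on leaving out 1 array it ran from 0.0249 to 0.0918.

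The protein HSP-25 is known from muscle, where it sits at the attachments of the contractile lattice. Its gene was at 10.59, 10.63 and 10.62 in controls and at 10.53, 10.51 and 10.36 with perchlorate, so that each exposed array was just below the very tight controls. Its difference was -0.15 (SE 0.106, limma adjusted p = 0.529; 95% interval -0.40 to 0.10), and it was -0.09 without perchlorate replicate 3. Markers of body wall muscle lay on the same side: 12 of 12 were below 0, with a median of -0.22, and their mean level was 10.35 to 10.45 in controls and 9.98 to 10.21 with perchlorate. Of these 12 markers 5 were lower and 0 higher at an unadjusted limma p under 0.05, beside 7.92% and 8.46% of all tested probe sets, and 0 passed adjusted. Other somatic lists lay lower too: 9 of 10 intestine markers, 9 of 10 pan-neuronal markers, 6 of 8 epidermis markers and 5 of 8 pharynx markers were below 0. The part of these lists in the hsp-25 value was not tested.

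In hsp-17, whose product is known to promote protein aggregation, the level was 10.21, 10.04 and 10.5 in controls and 10.24, 10.12 and 10.17 with perchlorate. All exposed values lay within the control range, and the difference was -0.07 (SE 0.143, limma adjusted p = 0.831; 95% interval -0.41 to 0.26). The gene sip-1, whose product is known as a chaperone of oocytes and embryos, was at 12.37, 12.38 and 12.32 and then at 12.5, 12.38 and 12.27. The exposed arrays spanned the controls on both sides (difference 0.02, SE 0.111, limma adjusted p = 0.939; 95% interval -0.24 to 0.28). Oocyte and eggshell markers, which mark the cells where sip-1 is known to act, had a median difference of 0.02, and 0 of 12 had an unadjusted limma p under 0.05 in either direction. For both genes the intervals leave room for differences of these sizes, so equality is not shown.

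**Figure D2:**
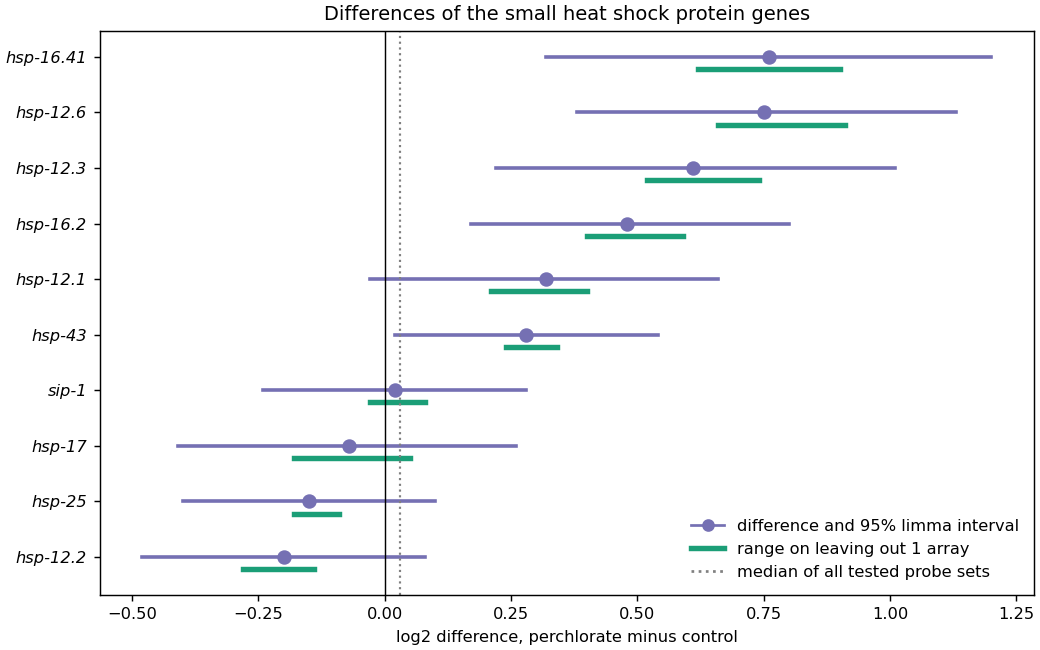
Log2 difference, perchlorate minus control, of each gene (horizontal axis) with its 95% limma interval in purple and the range over the 6 fits that leave out 1 array in green; the dotted line is the median of all tested probe sets, 0.03. The intervals of hsp-16.41, hsp-12.6, hsp-12.3, hsp-16.2 and hsp-43 lie above 0 without adjustment for the number of tests, and those of the other 5 genes include 0.

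Read array by array, the higher values were present on each perchlorate array. Relative to the control mean of each gene, the median of the 10 genes was 0.29 on perchlorate replicate 1, 0.25 on replicate 2 and 0.33 on replicate 3. On the controls it was -0.02, -0.1 and 0.12, and 7 of the 10 genes were above their control mean on control replicate 3. On perchlorate replicates 1 to 3 the same count was 7, 7 and 6, so this count did not separate the groups. Without perchlorate replicate 1 the differences were 0.53 for hsp-16.2, 0.69 for hsp-16.41, 0.58 for hsp-12.3 and 0.66 for hsp-12.6. The unadjusted limma p of hsp-16.2, hsp-16.41, hsp-12.3 and hsp-12.6 stayed under 0.05 on leaving out each array in turn, from 0.000305 to 0.0344, and their adjusted p from 0.152 to 0.444.

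The gene with the widest range over the arrays was hsp-16.41, at 1.17, and the genes with the most similar pattern were sought by the root mean square difference of centred log2 values over the 6 arrays. The closest were glb-1, a globin gene, at 0.0541, the F-box gene fbxb-15 at 0.069 and F47B8.1 at 0.071. The level of glb-1 was 7.58, 7.42 and 7.99 in controls and 8.53, 8.53 and 8.03 with perchlorate, again with control replicate 3 the highest control and perchlorate replicate 3 the lowest exposed array. The 3 genes were picked for their likeness to hsp-16.41, so differences close to its own follow from the choice. Those differences were 0.7, 0.73 and 0.69, with limma adjusted p of 0.185, 0.161 and 0.152. Like hsp-16.41, fbxb-15 and F47B8.1 had dim probe sets, with control means of 3.24 and 2.8.

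Regulators of the heat shock response were measured next. The transcript of hsf-1 itself, given for its place at the head of the response, was at 9.7, 9.71 and 9.76 in controls and at 9.76, 9.67 and 9.53 with perchlorate (difference -0.07, SE 0.111, limma adjusted p = 0.79). Its groups overlapped. Over 14 regulators 1 was higher and 6 were lower at an unadjusted limma p under 0.05, beside 8.46% and 7.92% of all tested probe sets, 0 passed adjusted, and the median was -0.02. The smallest p belonged to hpk-1, a kinase gene that in the nematode is known to favour induction of heat shock genes. It was at 8.37, 8.4 and 8.17 in controls and at 7.73, 7.79 and 7.68 with perchlorate, all below the controls (difference -0.58, SE 0.114, limma adjusted p = 0.14). Next was pqm-1, a transcription factor gene of the insulin and stress network, at 10.23, 10.2 and 10.21 and then at 9.87, 9.59 and 9.63 (difference -0.52, SE 0.118, limma adjusted p = 0.151). The 14-3-3 gene ftt-2, whose product holds DAF-16 in the cytoplasm, differed by -0.33 (SE 0.118, limma adjusted p = 0.246).

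Among the ATP-driven chaperones to which small heat shock proteins hand their clients, the heat-inducible hsp-70 stood highest. It was at 8.09, 7.8 and 8.45 in controls and at 8.36, 8.83 and 8.73 with perchlorate, so that control replicate 3 overlapped perchlorate replicate 1 (difference 0.53, SE 0.203, limma adjusted p = 0.265). The disaggregation partner hsp-110 differed by -0.12 and the HSP70-like gene F11F1.1 by 0.11, with limma adjusted p of 0.655 and 0.756. Of the 6 HSP70, HSP110 and HSP90 genes measured, 1 was higher and 0 lower at an unadjusted limma p under 0.05. The listed genes F44E5.4 and F44E5.5 were not measured and are not among the 6. Over all tested probe sets 8.46% were higher and 7.92% lower. Of the 6 genes 0 passed adjusted.

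J proteins, which deliver substrates to HSP70, lay on both sides of 0. Of 29 measured, 2 were higher and 3 lower at an unadjusted limma p under 0.05, near the 8.46% and 7.92% of all tested probe sets, 0 passed adjusted and the median was 0.01. The smallest p were in dnj-26 (0.55, limma adjusted p = 0.152), dnj-24 (-0.51, limma adjusted p = 0.17) and dnj-21 (0.5, limma adjusted p = 0.182). Among 12 genes of the co-chaperone list, which also held the protease gene lonp-1 (difference 0.08), 1 was higher and 0 lower by the same count. The higher gene was bag-1, whose product exchanges the nucleotide of HSP70, with a difference of 0.28. Next by p were the ubiquitin ligase gene chn-1 and the HSP90 activator gene ahsa-1 at 0.26 each. The limma adjusted p of bag-1, chn-1 and ahsa-1 were 0.298, 0.425 and 0.454.

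In the chaperonin and prefoldin list, whose products fold actin and tubulin, 0 of 14 genes passed adjusted. At an unadjusted limma p under 0.05, 3 were higher and 0 lower, beside 8.46% and 7.92% of all tested probe sets. All 3 encode prefoldin subunits: pfd-6 differed by 0.44 (SE 0.114, limma adjusted p = 0.162), pfd-2 by 0.37 (limma adjusted p = 0.256) and pfd-4 by 0.29 (limma adjusted p = 0.264). The list median was -0.01. The lowest median of the other lists, -0.11, was that of the 4 small heat shock genes outside the 10. Medians of the remaining chaperone and regulator lists lay between -0.02 and 0.05, beside 0.3 for the 10 genes. The difference between lists was not tested.

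**Figure D3:**
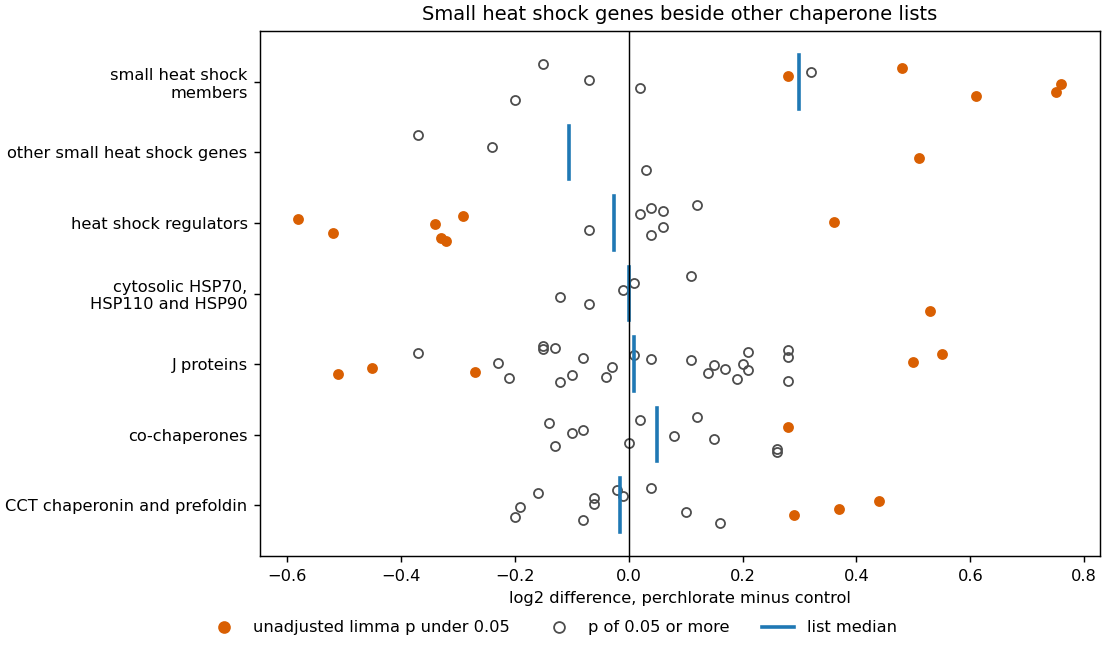
Log2 difference, perchlorate minus control (horizontal axis), of every measured gene in the small heat shock set and in 6 other lists, 1 point per gene, filled where the unadjusted limma p was under 0.05, with the list median as a blue bar. The median is 0.3 for the small heat shock set, -0.11 for the other small heat shock genes and between -0.02 and 0.05 for the remaining lists. Filled points stand on both sides of 0 among the regulators and J proteins.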

How the data were processed

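Per the submitters' processing notes, the authors ran RMA in the Affymetrix Expression Console to make the log2 values of probe sets that they deposited. The genome build is not given in the sources used here, and coordinates are left out. Per the labels' protocols, 200 ng of total RNA was amplified into biotin-labelled cDNA. Of 29317 rows, 25546 had 1 gene symbol in the platform annotation, 646 several and 3125 none; the 26192 with a gene were tested. The groups were compared in limma 3.58.1 (R 4.3.3; lmFit and eBayes, no trend, no filter, two-sided, Benjamini-Hochberg adjustment over all tested rows, threshold 0.05), with 4 residual and 3.12 prior degrees of freedom. With 6 arrays precision is limited, and the SE had a median of 0.153. On simulated data of 26192 rows with normal noise, 200 rows were given a change. There limma called 0% of the rows given a change of 0.5, 67.2% at a change of 1 and 100% at a change of 2. It also made 10 false calls. In the real data 16.4% of probe sets had an unadjusted limma p under 0.05, so these shares need not hold for them.

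All 10 genes were named, and from each other list the 3 genes with the smallest p; hsf-1 and its values were added outside that rule. The members and lists were chosen with earlier results of these data known. Neighbouring pairs were compared with an exact permutation test chosen after the values were seen. Names and neighbours came from the RefSeq table of WBcel235, and all 10 genes matched. Alternatives were a replicate block, each array left out, renormalisation, median centring, filters on dim rows, other sets of rows, a trended and robust prior, and array weights.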

Additional observations from a re-analysis of the deposited data

How the results depend on the processing

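None of the 10 genes passed adjusted in limma under any alternative in which it was tested; hsp-16.41 was not tested under either filter on dim rows, nor hsp-12.6 over rows above the median. Nearest was hsp-16.2 with a trended and robust prior, at a limma adjusted p of 0.0505. The count at an unadjusted limma p under 0.05 ran from 4 to 5 on leaving out 1 array and from 4 to 6 under the other alternatives; this count was added after seeing the data. The median of the genes ran from 0.27 to 0.33 on leaving out 1 array, and was 0.15 over rows above the median brightness. Among single genes, 2 small differences turned direction: hsp-17 ran from -0.18 to 0.05 on leaving out 1 array, above 0 without control replicate 3, and sip-1 from -0.03 to 0.08, below 0 without perchlorate replicate 1. The count over all probe sets, 2 in the reported test, was 0 on leaving out any array (2793 to 4589 at an unadjusted limma p under 0.05). It was 0 with 1 row per gene (4172 unadjusted), 1 after quantile normalisation again, after median centring and over all rows, 97 over rows above the median and 328 with a trended and robust prior; the cause was not tested. With the replicate number as a block the count over all probe sets was 0 (3908 unadjusted). In that fit 5 of the 10 genes had an unadjusted limma p under 0.05. Deviations of same-numbered arrays from their group means correlated at 0.0285, -0.018 and -0.00606, and those of arrays with unlike numbers from -0.0368 to 0.0474. The labels do not say whether the numbers pair the arrays. With only 3 arrays per group, these correlations cannot decide it. Averaging several probe sets of a gene could not be run, since each gene had 1. Among the small heat shock genes, dim signal limits hsp-16.41 and hsp-16.21 most.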
